A study of Schizosaccharomyces pombe with 9 samples.

Results

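The genes pho1, pho84 and tgp1 of fission yeast form the core of the PHO regulon, and their RNA was followed here in 9 libraries. They were taken by their common names in the authors' comparison tables, which leaves 3 genes of the 6986 in the count table. The choice was made with earlier results of these data known. STF6 (3 libraries) and STF9 (3 libraries) are strains that the series describes as suppressor mutants, and T4A (3 libraries) is their parental control. T4A carries rpb1-CTD-T4A29, an allele of the gene for the largest subunit of RNA polymerase II. By its name this allele puts alanine at Thr4 in the repeats of the carboxy-terminal domain (CTD). The series title states that the Thr4 mutation over-represses the PHO regulon and that suppressors of this effect were isolated. Which genes are mutated in STF6 and STF9 was not given in the sources used here, nor were their full genotypes. Each suppressor is 1 strain. All 3 strains were in vegetative growth, in log phase in YES, a rich medium, at 30 °C. The title names the genes' repression as what was suppressed, so the direction of their change in STF6 and STF9 is not independent evidence. Every fold over T4A starts from this over-repressed parent. No wild-type library is among the 9, so how the suppressor levels compare with normal ones cannot be told.

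Fission yeast turns these genes on when phosphate is scarce and keeps them low in rich medium. Pho1 is a secreted acid phosphatase that frees phosphate from organic molecules outside the cell. Pho84 carries inorganic phosphate across the plasma membrane, and Tgp1 carries glycerophosphodiesters, which hold phosphate in organic form. Each gene lies downstream of a long non-coding RNA (lncRNA) on the same strand: nc-pho1 (also called prt) before pho1, prt2 before pho84, and nc-tgp1 before tgp1. Transcription of the lncRNA through the promoter of the coding gene is known to keep that gene off, and early termination of the lncRNA lets the gene be expressed. The transcription factor Pho7 is the activator that binds the pho1 and tgp1 promoters. Termination factors, the CTD's phosphorylation and inositol pyrophosphates, which the enzyme Asp1 makes and degrades, are known to act on the lncRNA step.

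The promoters are shown because the lncRNAs run through them and because Pho7 is known to bind those of pho1 and tgp1. The sequences below are the 250 bases before each annotated gene start, 5′ to 3′ on the gene's strand, from RefSeq's ASM294v3 assembly: chrII:4447256-4447505 (plus strand) for pho1, chrII:4443851-4444100 (plus strand) for pho84 and chrII:352412-352661 (minus strand) for tgp1. Capitals mark matches to the fixed letters of the Pho7 site.
pho1: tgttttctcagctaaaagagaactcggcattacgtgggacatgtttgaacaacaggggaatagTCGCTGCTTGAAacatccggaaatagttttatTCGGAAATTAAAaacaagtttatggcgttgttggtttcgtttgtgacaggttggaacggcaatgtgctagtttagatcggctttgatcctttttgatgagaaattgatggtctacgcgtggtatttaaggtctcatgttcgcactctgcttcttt
pho84: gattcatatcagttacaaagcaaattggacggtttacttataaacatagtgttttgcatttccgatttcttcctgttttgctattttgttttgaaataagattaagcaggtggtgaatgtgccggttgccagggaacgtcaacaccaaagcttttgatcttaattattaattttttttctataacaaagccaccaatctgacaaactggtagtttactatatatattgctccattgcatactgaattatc
tgp1: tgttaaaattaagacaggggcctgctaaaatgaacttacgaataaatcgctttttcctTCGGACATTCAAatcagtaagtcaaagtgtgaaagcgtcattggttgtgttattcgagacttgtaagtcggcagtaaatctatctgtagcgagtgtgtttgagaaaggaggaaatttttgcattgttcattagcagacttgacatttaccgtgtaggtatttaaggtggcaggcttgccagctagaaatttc

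Both strands were searched for TCGNNNNTTNAA, the fixed letters of the known Pho7 site. The pho1 promoter held 2 matches, TCGCTGCTTGAA from 187 to 176 bases before the gene start and TCGGAAATTAAA from 155 to 144 bases before it. The tgp1 promoter held 1 match, TCGGACATTCAA, from 192 to 181 bases before the start. The pho84 window held 0. All 3 matches lay on the gene's own strand and none overlapped another. Across the 5112 protein-coding genes with a window of this length, 297 promoters (5.81%) held at least 1 match. The TATA box letters TATAAA occurred in the pho84 window, on the gene's own strand from 212 to 207 bases before the start, and in neither of the other windows. They occurred in 2270 of the 5112 promoters (44.4%). Only these exact letters were searched, so a TATA box spelled otherwise, in any of the windows, would be missed. All these matches are of letters and not measured binding. Pho7 was already known to bind at pho1 and tgp1, and its known site may rest on these same promoters. The matches there are therefore not independent evidence.

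The libraries held between 15374453 and 22909747 counts. Levels below are CPM, counts scaled by TMM (a correction for library composition) to a common library size. Folds are on the log2 scale, with a standard error (SE), from one edgeR quasi-likelihood fit of 5951 genes to all 9 libraries. The words rose and fell are kept for genes whose p, adjusted by Benjamini-Hochberg over those 5951, was under 0.05. T4A replicate 2 lay farthest from the others on the first principal component (65.7% of the variance) and had the smallest TMM factor, 0.859. The suppressor libraries had factors of 1.003 to 1.044, and T4A replicates 1 and 3 had 0.978 and 1.091. The gene of the T4A allele, rpb1, did not pass, at −0.29 ± 0.18 in STF6 and −0.16 ± 0.18 in STF9 (log2 fold over T4A ± SE). Gene counts do not show which CTD allele a strain carries. The series text calls the replicates experiments but does not say that they were separate cultures, so p-values measure the spread between these samples, which may be technical. In bulk RNA, more cells with a transcript and more of it per cell cannot be told apart.

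The gene pho1 was among the most abundant RNAs of both suppressors and ranked much lower in T4A. It had 6017, 6039 and 6082 CPM in STF6, 5221, 5316 and 4985 CPM in STF9, and 106, 127 and 94.3 CPM in T4A. Behind these stand 97574 to 138721 counts per STF6 library, 95107 to 101365 per STF9 library and 2154 to 2254 per T4A library. The 3 groups did not overlap, with STF6 highest and T4A far below. By count, pho1 ranked 8 or 9 of 6986 genes in STF6, 9 in every STF9 library, and 1440 to 1669 in T4A. Its mean was 6046 ± 33.2 CPM in STF6 and 109 ± 16.7 CPM in T4A (SD, n = 3 each), a log2 fold of 5.79 ± 0.14 (SE), or 55.5-fold, with a 95% interval of 5.49 to 6.10 and an adjusted p of 2.96e-11 by edgeR. In STF9 the mean was 5174 ± 171 CPM (SD, n = 3), a log2 fold of 5.57 ± 0.14 against T4A, or 47.5-fold, with an interval of 5.27 to 5.87 and an adjusted p of 4.45e-11 by edgeR.

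The transporter gene pho84 was also high in both suppressors. It had 2358, 2292 and 2261 CPM in STF6, 2147, 2068 and 1956 CPM in STF9, and 115, 138 and 118 CPM in T4A. The lowest STF6 library lay above the highest STF9 library, and every suppressor library lay above every T4A library. By count it ranked 56 to 62 in STF6, 70 to 85 in STF9 and 1360 to 1445 in T4A. The mean of 2304 ± 49.8 CPM in STF6 and of 124 ± 12.4 CPM in T4A (SD, n = 3 each) gave a log2 fold of 4.22 ± 0.11, or 18.6-fold, with an interval of 3.98 to 4.45. For STF9, at 2057 ± 96.3 CPM (SD, n = 3), the log2 fold against T4A was 4.05 ± 0.11, or 16.6-fold, with an interval of 3.82 to 4.28. The adjusted p by edgeR was 2.96e-11 in STF6 and 4.45e-11 in STF9. A stretch of 146 bases in pho84 is identical in SPBC1683.01, a gene for a predicted phosphate transporter that RefSeq names pho841, and 97 of the 2051 words of 50 bases in pho84 occur there. The counting rule for reads that match both genes was not given in the sources used here. No word of 50 bases in pho1 or tgp1 occurs elsewhere in the genome.

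The glycerophosphodiester transporter gene tgp1 was sparse in T4A and rose in both suppressors. It had 267, 244 and 225 CPM in STF6, 186, 194 and 176 CPM in STF9, and 8.25, 12.5 and 7.07 CPM in T4A. The groups did not overlap, and T4A replicate 2 was the highest T4A library. The T4A values rest on 168, 217 and 169 counts, and the gene's rank by count there was 4257 to 4839, against 721 to 804 in STF6 and 910 to 987 in STF9. From a mean of 245 ± 21.2 CPM in STF6 and 9.26 ± 2.83 CPM in T4A (SD, n = 3 each) the log2 fold was 4.74 ± 0.16, or 26.8-fold, with an interval of 4.39 to 5.10 and an edgeR adjusted p of 5.75e-10. In STF9, at 185 ± 9.19 CPM (SD, n = 3), it was 4.34 ± 0.16, or 20.3-fold, with an interval of 3.99 to 4.69 and an edgeR adjusted p of 1.65e-09.

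**Figure D1:**
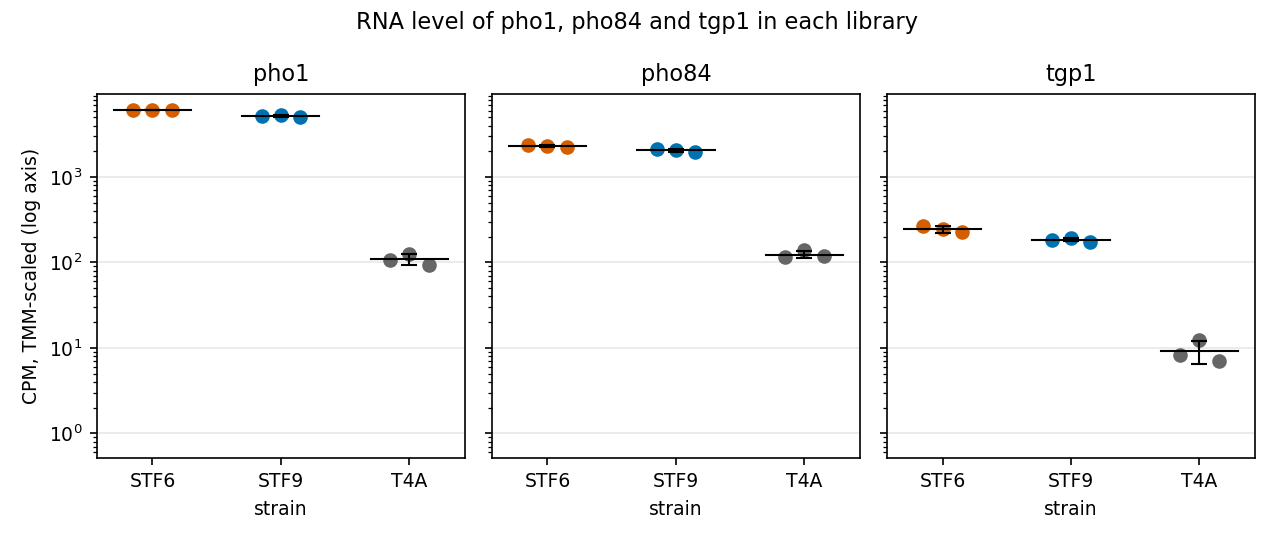
RNA level of each gene in each library, in CPM on a log axis, for STF6, STF9 and T4A. Points are libraries, the long bar is the mean and the error bar the SD (n = 3). The suppressor libraries lie above the T4A libraries for all 3 genes, with pho1 at 4985 to 6082 CPM against 94.3 to 127 CPM in T4A.

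Against the rest of the transcriptome, the 3 genes stood at the top of the list of folds in both suppressors. Of the 5951 genes tested, 1141 (19.2%) rose and 1145 (19.2%) fell in STF6, and 1368 (23%) rose and 1265 (21.3%) fell in STF9, so a rise alone was common. Groups that do not overlap were common too, with every STF6 library above every T4A library for 25.7% of genes and every STF9 library above every T4A library for 28.7%. The size of the rise was not common. By log2 fold, pho1 ranked 1, tgp1 4 and pho84 5 of 5951 in each suppressor, and the ranks 2 and 3 were held by SPBPB2B2.06c and ecl3. Both suppressors were set against the same T4A libraries, so their folds are not independent of each other. Together the 3 genes made up 0.875 ± 0.0175% of all counts in STF6, 0.750 ± 0.0240% in STF9 and 0.0234 ± 0.000869% in T4A (SD, n = 3 each). In the authors' deposited table the log2 folds in STF6 were 5.75 ± 0.10 (SE) for pho1, 4.18 ± 0.08 for pho84 and 4.69 ± 0.16 for tgp1. The authors' deposited table for STF9 gave 5.52 ± 0.10 for pho1, 4.01 ± 0.08 for pho84 and 4.28 ± 0.16 for tgp1.

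**Figure D2:**
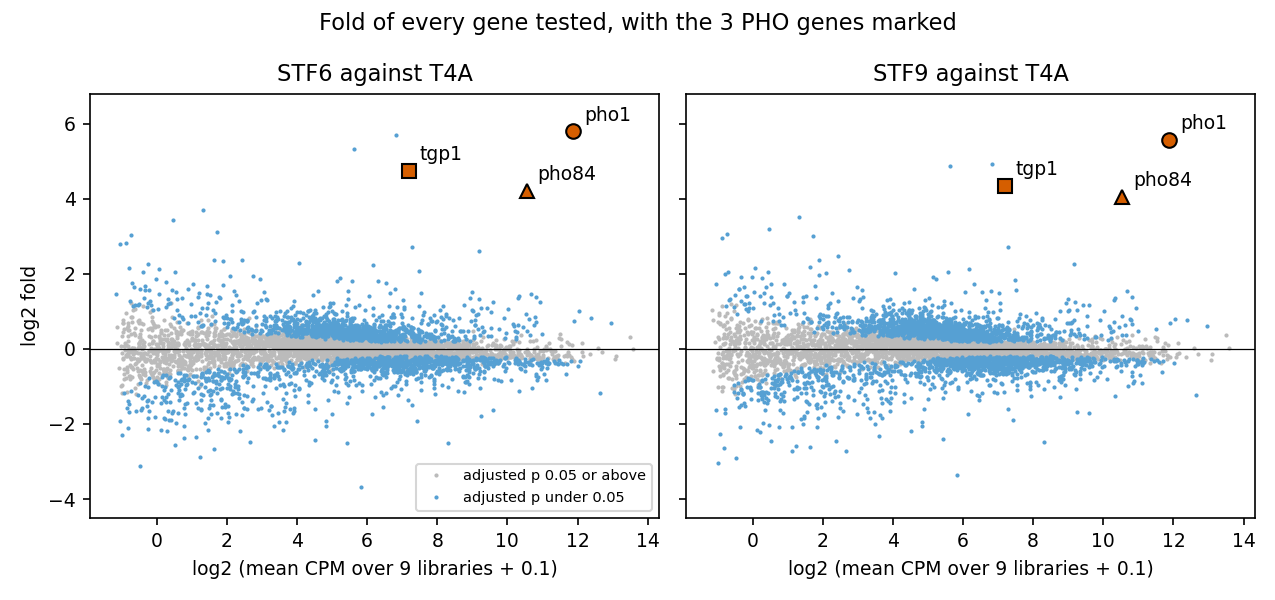
Log2 fold (vertical axis) of each of the 5951 genes tested against its mean level over the 9 libraries (horizontal axis, log2 of CPM + 0.1), for STF6 and STF9 against T4A. Blue dots are genes with an adjusted p under 0.05 and grey dots the others. The larger symbols for pho1, tgp1 and pho84 stand at log2 folds of 5.79, 4.74 and 4.22 in STF6, above nearly all other genes and at higher levels than most of them.

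Levels can be compared between the genes only per length, here CPM per kilobase (kb) of exon in the RefSeq annotation (1548 bases for pho1, 2100 for pho84 and 2102 for tgp1). In STF6, pho1 stood at 3906 ± 21.4, pho84 at 1097 ± 23.7 and tgp1 at 117 ± 10.1 CPM per kb (SD, n = 3). In STF9 the values were 3342 ± 110 for pho1, 980 ± 45.9 for pho84 and 88.2 ± 4.37 for tgp1, the same order with no overlap between genes. In T4A, pho1 stood at 70.5 ± 10.8 and pho84 at 59.0 ± 5.91 CPM per kb. Across libraries these overlapped, with the lowest pho1 value (60.9) under the highest pho84 value (65.8). Within each T4A library pho1 was the higher, at 68.3, 82.2 and 60.9 CPM per kb, with pho84 at 54.9, 65.8 and 56.4 CPM per kb. The tgp1 level there was 4.41 ± 1.35 CPM per kb, below both.

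The 3 genes did not rise by the same factor. This was read from the ratio of 2 genes' raw counts within a library, which library scaling does not touch. The part of lncRNA reads in these counts was not tested. The log2 ratio of pho1 over pho84 was 1.35, 1.40 and 1.43 in STF6, 1.28, 1.36 and 1.35 in STF9, and −0.12, −0.12 and −0.33 in T4A. All 6 suppressor libraries had more pho1 than pho84 counts and all 3 T4A libraries had fewer. The mean was 1.36 ± 0.05 over the suppressor libraries (SD, n = 6) and −0.19 ± 0.12 in T4A (SD, n = 3), so pho1 rose 2.93-fold more than pho84 (difference 1.55; two-sided exact permutation p = 0.0238, the smallest this design can give; 0.0357 adjusted over the 3 ratios). Without any one T4A library the exact permutation p was 0.0714, the smallest that the libraries left allow.

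The ratio of pho1 over tgp1 moved the same way. Its log2 value was 4.49, 4.63 and 4.76 in STF6, 4.81, 4.77 and 4.82 in STF9, and 3.68, 3.35 and 3.74 in T4A, with no overlap between suppressors and T4A. The means of 4.72 ± 0.13 over the suppressor libraries (SD, n = 6) and 3.59 ± 0.21 in T4A (SD, n = 3) differed by 1.13, or 2.18-fold (exact permutation p = 0.0238, adjusted 0.0357, and again 0.0714 without any one T4A library). For pho84 over tgp1 the log2 ratio was 3.35 ± 0.15 in the suppressors (SD, n = 6) and 3.78 ± 0.30 in T4A (SD, n = 3). That difference of −0.43 did not pass (exact permutation p = 0.0714, adjusted 0.0714), and its T4A values, from 3.47 to 4.07, overlapped the values of STF9 (3.41 to 3.53) but not those of STF6 (3.14 to 3.33). STF6 and STF9 are different strains, so the pooled groups mix 2 sources. Each suppressor alone gave a difference from T4A of 1.58 (STF6) and 1.52 (STF9) for pho1 over pho84, and of 1.04 (STF6) and 1.21 (STF9) for pho1 over tgp1. With 3 libraries against 3, the exact permutation p of each of these was 0.1, the smallest possible. For pho84 over tgp1 the difference from T4A was −0.54 in STF6 (exact permutation p = 0.1) and −0.31 in STF9 (exact permutation p = 0.3).

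**Figure D3:**
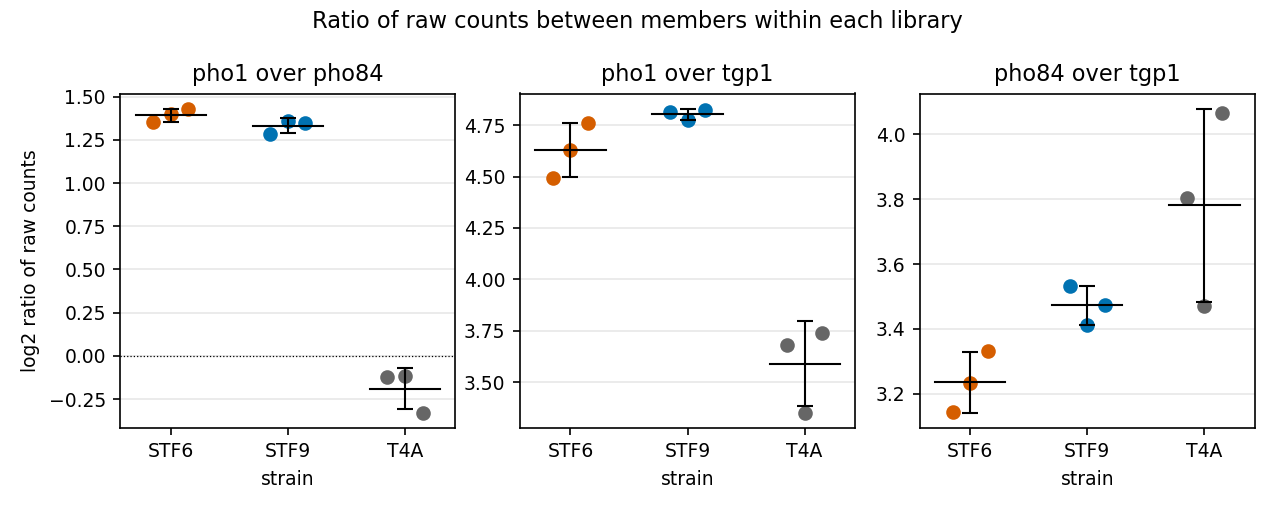
Log2 ratio of raw counts between 2 of the genes within each library, for STF6, STF9 and T4A. Points are libraries, the long bar is the mean and the error bar the SD (n = 3), and the vertical axes differ between panels and do not start at 0. The ratio of pho1 over pho84 lies at 1.28 to 1.43 in the suppressors and below 0 in T4A, while that of pho84 over tgp1 overlaps T4A in STF9 and lies below it in STF6.

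In CPM, libraries of one strain were closer together in the suppressors than in T4A. The coefficient of variation (CV) of pho1 was 0.548% in STF6, 3.30% in STF9 and 15.3% in T4A, where counting alone gives 0.289% in STF6, 0.320% in STF9 and 2.13% in T4A. For pho84 the CV was 2.16% in STF6, 4.68% in STF9 and 10.01% in T4A, and for tgp1 it was 8.65% in STF6, 4.96% in STF9 and 30.6% in T4A. T4A replicate 2 was the highest T4A library for all 3 genes, by 0.23 (pho1), 0.16 (pho84) and 0.47 (tgp1) above the T4A mean of log2 CPM. As unscaled shares of library counts, which carry no TMM factor, pho1 made up 0.0103%, 0.0109% and 0.0103% of the T4A libraries, and its CV was 2.69% in STF6, 3.034% in STF9 and 3.36% in T4A. The share of pho84 had a CV of 1.78% in STF6, 4.35% in STF9 and 6.95% in T4A, and its highest T4A share, 0.0129%, was in replicate 3. For tgp1 the CV of the share was 7.16% in STF6, 4.74% in STF9 and 18.5% in T4A, with counting alone at 7.40% in T4A. Without T4A replicate 2 the log2 folds were 5.92 (pho1), 4.31 (pho84) and 5.01 (tgp1) in STF6.

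STF9 was compared with STF6 to ask whether the suppressors differ in how far the genes rose. Each of the 3 genes was lower in every STF9 library than in any STF6 library, a pattern that held for 7.36% of the genes tested. The log2 difference, STF9 over STF6, was −0.22 ± 0.11 (SE) for pho1, with a 95% interval of −0.47 to 0.02, and −0.16 ± 0.09 for pho84, with an interval of −0.37 to 0.04. It was −0.40 ± 0.13 for tgp1, with an interval of −0.69 to −0.12. None passed, each with an adjusted p of 0.980 by edgeR, and 0 of the 5951 genes (0%) did. Before adjustment 178 genes, tgp1 among them but not pho1 or pho84, had a p under 0.05. DESeq2 called 1 gene, which was none of the 3.

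This comparison depended on whether the T4A libraries lent their spread to the fit. The common biological coefficient of variation was 0.104 with all 9 libraries, 0.0598 without T4A replicate 2 and 0.0546 with the 6 suppressor libraries alone. Fitted to those 6, tgp1 was lower in STF9 by −0.40 ± 0.06 (log2 ± SE, adjusted p = 7.35e-04 by edgeR) and pho1 by −0.22 ± 0.04 (adjusted p = 0.00862), while pho84, at −0.16 ± 0.04, did not pass (adjusted p = 0.128). In that fit 10 of 5870 genes were lower in STF9 (0.170%) and 7 higher. Of the 10 lower genes 5 were pho1, tgp1, ecl3 (−0.45 ± 0.07), SPBPB2B2.06c (−0.77 ± 0.08) and SPBC1683.01 (−0.24 ± 0.05). Without T4A replicate 2, tgp1 alone of the 3 passed (adjusted p = 0.00122 by edgeR). Within the suppressors the ratio of pho1 over pho84 was 1.33 ± 0.04 in STF9 and 1.39 ± 0.04 in STF6 (log2, SD, n = 3 each; exact permutation p = 0.2). The ratio of pho84 over tgp1 was 3.47 ± 0.06 in STF9 and 3.24 ± 0.09 in STF6 (SD, n = 3 each; exact permutation p = 0.1, the smallest possible).

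The genes pho84 and pho1 are neighbours on chromosome II, in the same orientation with 1305 bases between them, while tgp1 lies elsewhere on that chromosome. In the RefSeq annotation nc-pho1 starts 1147 bases before pho1 and prt2 starts 1559 bases before pho84, and each runs on over the whole coding sequence of its partner (1362 bases of pho1 and 1719 of pho84). The lncRNA nc-tgp1 starts 1823 bases before tgp1 and overlaps 35 of its 1587 coding bases. Reads of an lncRNA that runs on over a gene in the same strand carry that gene's sequence, and the rule by which such reads were counted was not given in the sources used here. Since the overlap differs by gene, such reads may enter the levels, folds and ratios unequally, which was not tested. No counted feature matched nc-pho1 or nc-tgp1 by RefSeq ID or synonym, so neither lncRNA was analysed here.

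One feature of the table, SPBC8E4.02c, is listed by RefSeq as a synonym of prt2, although the authors' tables describe it as a protein, and the extent over which it was counted is not given. It had 29.9, 30.3 and 30.0 CPM in STF6, 27.8, 29.7 and 30.4 CPM in STF9, and 20.0, 33.5 and 20.6 CPM in T4A. T4A replicate 2 was above all suppressor libraries and the other T4A libraries were below them. The log2 fold was 0.29 ± 0.17 (SE) in STF6 and 0.25 ± 0.17 in STF9, and neither passed (adjusted p by edgeR 0.190 in STF6 and 0.235 in STF9). Without T4A replicate 2 it was 0.57 in STF6 and 0.54 in STF9, and both passed (adjusted p by edgeR 3.24e-05 in STF6 and 7.18e-05 in STF9). With and without that library its fold was far under that of pho84.

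On the other side of prt2 lies ecl3, on the opposite strand with 2273 bases between it and pho84. Its protein belongs to a family of small proteins that extend chronological lifespan. It had 91.9, 83.5 and 79.2 CPM in STF6, 64.8, 60.8 and 60.7 CPM in STF9, and 1.37, 3.10 and 1.97 CPM in T4A, so all suppressor libraries lay far above all T4A libraries. It rose by 5.33 ± 0.18 (log2 ± SE) in STF6 (adjusted p = 5.75e-10 by edgeR) and by 4.88 ± 0.18 in STF9 (adjusted p = 1.68e-09). Downstream of pho1 the lncRNA SPNCRNA.446 had 0 counts in all 9 libraries, and fub2 had at most 9 counts in a library and was not tested.

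At tgp1 the nearest upstream feature counted was SPNCRNA.1343, which RefSeq describes as a lncRNA made bidirectionally with nc-tgp1. It lies on the opposite strand with 1619 bases between it and tgp1. It had 3.26, 3.22 and 4.80 CPM in STF6, 4.996, 4.639 and 5.300 CPM in STF9, and 8.93, 7.69 and 10.1 CPM in T4A, with both suppressors below T4A in every library. It fell by 1.27 on the log2 scale in STF6 (SE 0.18, adjusted p = 2.16e-04 by edgeR) and by 0.84 in STF9 (SE 0.18, adjusted p = 0.00262), opposite in direction to tgp1. SPBC1271.10c, which converges on tgp1 and overlaps its end by 67 bases, fell by 0.52 in each suppressor (SE 0.09; adjusted p by edgeR 8.96e-04 in STF6 and 9.68e-04 in STF9). Reads in the overlap can be told apart only by strand, and the sources used here do not state whether the counting used it. The next gene downstream, pet802, did not pass, with log2 folds of −0.06 ± 0.08 in STF6 and −0.11 ± 0.08 in STF9.

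**Figure D4:**
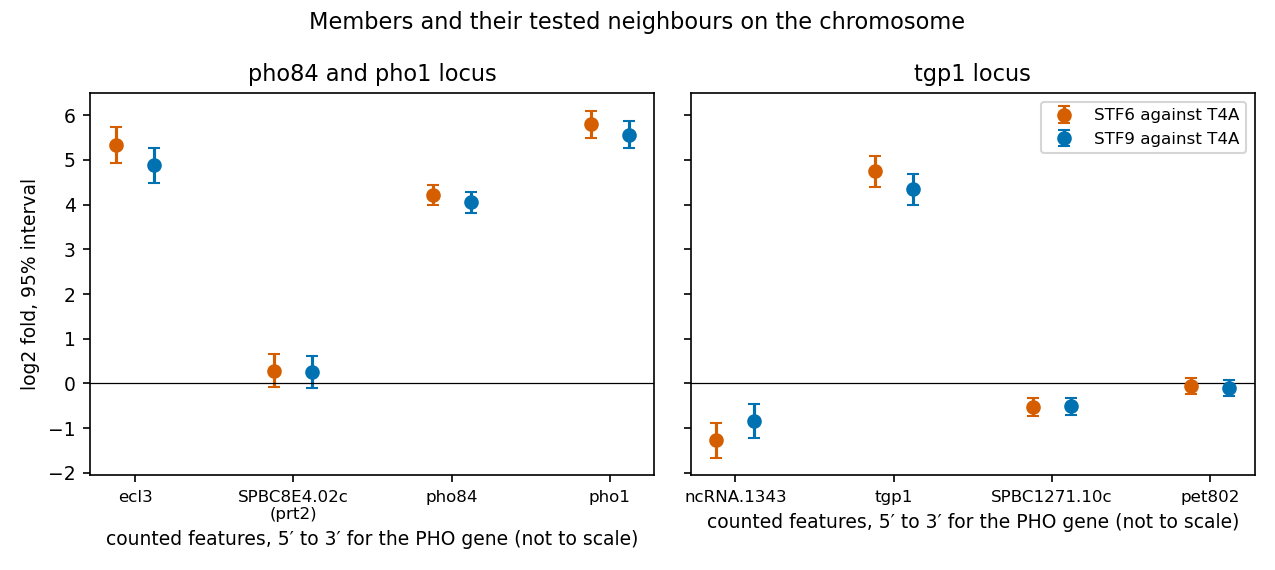
Log2 fold with its 95% interval for the counted features around pho84 and pho1 (left) and around tgp1 (right), for STF6 and STF9 against T4A. Features stand in 5′ to 3′ order of the PHO genes and not to scale. The genes ecl3, pho84, pho1 and tgp1 lie above 4 in both suppressors, and SPNCRNA.1343 and SPBC1271.10c lie below 0. SPBC8E4.02c (prt2) lies at 0.29 in STF6 and 0.25 in STF9, with intervals that include 0.

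The genes most like each member were found by the root mean square (RMS) difference of log2 CPM over the 9 libraries, each gene centred on its own mean. The closest to pho1 were ecl3 (0.370), SPBPB2B2.06c (0.464), tgp1 (0.555), pho84 (0.735) and pma2 (1.17), where the median over 5950 genes was 2.67. For pho84 they were tgp1 (0.263), pma2 (0.448), ecl3 (0.506), guf1 (0.653) and SPCC11E10.01 (0.683), with a median of 1.94. For tgp1 they were pho84 (0.263), ecl3 (0.310), SPBPB2B2.06c (0.544), pho1 (0.555) and pma2 (0.653), with a median of 2.15. Thus tgp1 and pho84 were each other's nearest gene, while the nearest to pho1 was ecl3. The product of SPBPB2B2.06c is a predicted extracellular 5'-nucleotidase, pma2 encodes a proton pump of the plasma membrane, and guf1 encodes a mitochondrial elongation factor. The level of pma2 was low, at 3.65 ± 0.587 CPM in STF6, 3.24 ± 0.411 in STF9 and 0.280 ± 0.0557 in T4A (SD, n = 3 each). That of guf1 was low too, at 4.68 ± 0.807 CPM in STF6, 4.34 ± 0.215 in STF9 and 0.528 ± 0.197 in T4A (SD, n = 3 each). All 9 libraries enter each of these differences and most of each gene's variation is the gap between T4A and the suppressors.

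Other genes of phosphate acquisition moved far less than the 3 core genes, with 1 exception. Of 5 such genes 3 rose in each suppressor and none fell. Of all genes 19.2% rose and 19.2% fell in STF6, and 23% rose and 21.3% fell in STF9. The 5 genes had a median log2 fold of 0.34 in STF6 and 0.30 in STF9. The median of all genes tested was 0.03 in STF6 and 0.04 in STF9. SPBPB2B2.06c had 245, 184 and 208 CPM in STF6, 139, 115 and 121 CPM in STF9, and 2.70, 8.04 and 2.09 CPM in T4A. Its log2 fold was 5.70 ± 0.32 in STF6 and 4.93 ± 0.32 in STF9, and all suppressor libraries lay above T4A. SPBC1683.01, the transporter gene that shares the identical stretch with pho84, had 263, 251 and 251 CPM in STF6, 216, 226 and 207 CPM in STF9, and 50.9, 84.4 and 48.2 CPM in T4A. It rose by 2.063 ± 0.165 in STF6 and 1.826 ± 0.164 in STF9, and the part of reads from pho84 in these counts was not tested. A further predicted phosphate transporter gene, SPAC23D3.12, rose by 0.34 ± 0.08 in STF6 and 0.30 ± 0.08 in STF9, where the call was lost without STF9 replicate 2 (adjusted p = 0.0606). The thiamine-repressed acid phosphatase gene pho4 (−0.05 ± 0.09 in STF6 and −0.07 ± 0.09 in STF9) and SPBC21H7.03c, a predicted inositol polyphosphate phosphatase gene (0.11 ± 0.09 in STF6 and 0.04 ± 0.09 in STF9), did not pass. The Pho7 letters matched once in the promoters of SPBPB2B2.06c and SPAC23D3.12 and not in those of SPBC1683.01, pho4, SPBC21H7.03c, ecl3, pma2, guf1 or SPCC11E10.01.

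Of 6 measured genes that store or export phosphate, 5 rose in STF6 and 5 in STF9, and 1 fell in STF9. Of all genes 19.2% rose in STF6 and 23% in STF9, and 21.3% fell in STF9. The list had median log2 folds of 0.57 in STF6 and 0.49 in STF9. The polyphosphate synthesis genes vtc4 (0.74 ± 0.08 in STF6 and 0.61 ± 0.08 in STF9) and vtc2 (0.65 ± 0.08 in STF6 and 0.55 ± 0.08 in STF9) rose. So did pho8, the vacuolar alkaline phosphatase gene (0.58 ± 0.08 in STF6 and 0.47 ± 0.08 in STF9), SPCC1827.07c, a gene for an SPX and EXS domain protein (0.57 ± 0.11 in STF6 and 0.52 ± 0.11 in STF9), and gde1, a glycerophosphodiesterase gene (0.45 ± 0.12 in STF6 and 0.37 ± 0.12 in STF9). The gene for an SPX domain ubiquitin ligase, SPAC6B12.07c, fell in STF9 (−0.27 ± 0.08) and did not pass in STF6 (−0.21 ± 0.08). Its fall was not called without STF9 replicate 3 (adjusted p = 0.101) or with only the libraries compared (adjusted p = 0.0512), and the rise of gde1 was not called in STF9 in 7 of 16 alternatives or in STF6 without STF6 replicate 2.

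The regulators did not move as a group. Of 5, 3 rose and 1 fell in STF6, where 19.2% of all genes rose and 19.2% fell, and 2 rose and 1 fell in STF9, where 23% rose and 21.3% fell. The activator gene pho7 was lower in the suppressors, in the direction opposite to the 3 genes. It had 117, 112 and 113 CPM in STF6, 115, 108 and 116 CPM in STF9, and 157, 214 and 160 CPM in T4A, and fell by 0.63 ± 0.10 (log2 ± SE) in STF6 and by 0.64 ± 0.10 in STF9. Its T4A libraries, replicate 2 highest, all lay above the suppressor libraries. The gene asp1, for the enzyme that makes and degrades inositol pyrophosphates, rose to 45.7 ± 1.03 CPM in STF6 and 48.8 ± 3.22 CPM in STF9, against 22.6 ± 1.38 CPM in T4A (SD, n = 3 each), a log2 fold of 1.02 ± 0.10 in STF6 and 1.11 ± 0.10 in STF9. The pyrophosphatase gene aps1 rose by 0.84 ± 0.12 in STF6 and 0.70 ± 0.12 in STF9. SPBC17A3.03c, which RefSeq lists as siw14, rose in STF6 (0.19 ± 0.07) but not past the threshold in STF9 (0.07 ± 0.07), and its call in STF6 was lost in 11 of 16 alternatives. The kinase gene csk1 passed in neither.

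**Figure D5:**
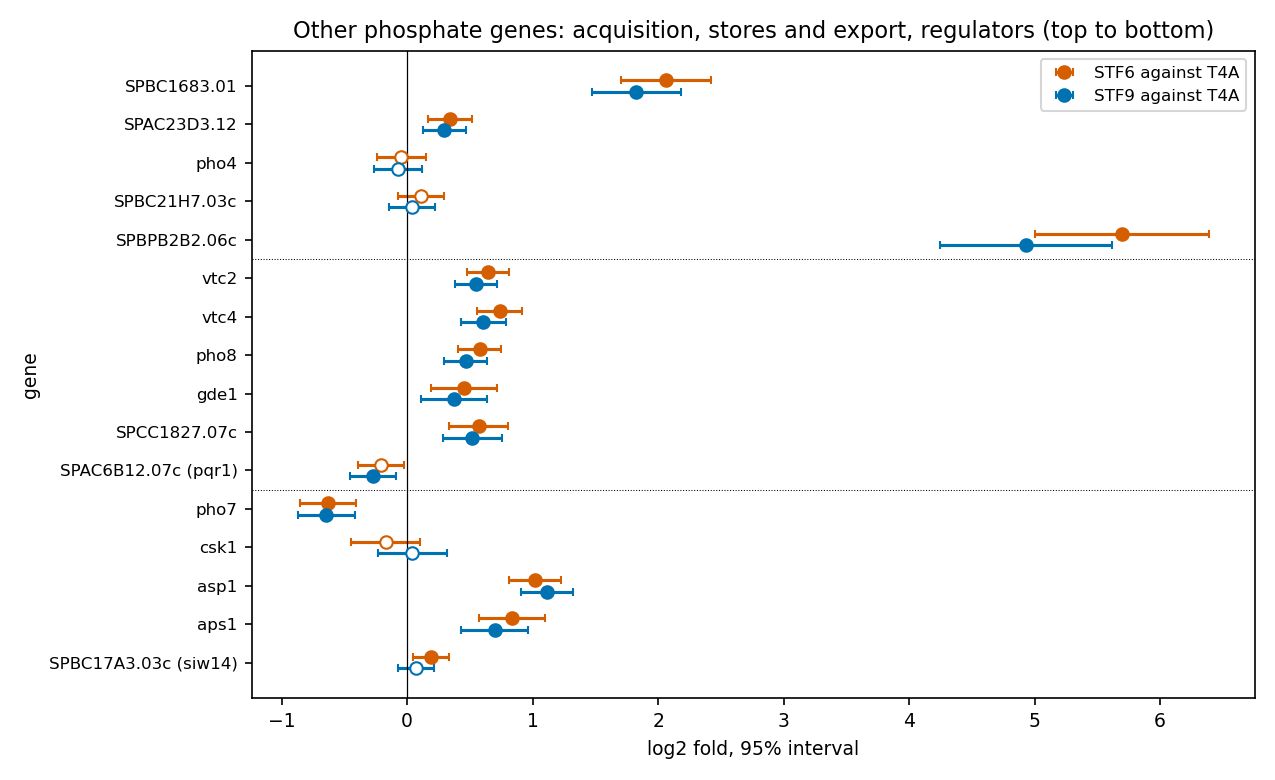
Log2 fold with its 95% interval for the other phosphate genes, in the order acquisition, stores and export, and regulators from top to bottom, for STF6 and STF9 against T4A. Filled symbols passed the test and open symbols did not. SPBPB2B2.06c, at 5.70 in STF6 and 4.93 in STF9, and SPBC1683.01 stand apart from the others, which lie between −0.64 and 1.11.

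Of 19 genes for cleavage, polyadenylation and termination factors, which act where lncRNA transcription ends, 8 rose and 1 fell in each suppressor. Of all genes 19.2% rose and 19.2% fell in STF6, and 23% rose and 21.3% fell in STF9. Of the 8, ssu72 lost its call in STF6 and ctf1 its call in STF9 in 3 alternatives each. The median log2 fold of the 19 was 0.13 in STF6 and 0.17 in STF9. The largest rises were in cft2 (0.98 ± 0.12 in STF6 and 1.13 ± 0.12 in STF9) and pfs2 (0.91 ± 0.13 in STF6 and 1.03 ± 0.13 in STF9), genes for core subunits of the cleavage and polyadenylation complex, and in the termination factor gene rhn1 (0.82 ± 0.13 in STF6 and 0.98 ± 0.13 in STF9). The phosphatase gene dis2 fell (−0.45 ± 0.09 in STF6 and −0.50 ± 0.09 in STF9). Of 7 genes for nuclear RNA elimination, 4 rose and none fell in each suppressor, against the same shares of all genes, with a median of 0.42 in STF6 and 0.49 in STF9. These were red1, rrp6, pir2 and pla1, the poly(A) polymerase gene, which is also among the 19. Without T4A replicate 2, all 7 were called in STF6 (5 higher), and without STF6 replicate 2 or 3 only 2 were. Over all genes 2286 were called in STF6 with every library and 2632 without T4A replicate 2. That number was 1671 without STF6 replicate 2 and 1737 without STF6 replicate 3. In STF9 against STF6, edgeR called 0 genes of these lists with all 9 libraries in the fit, and the 1 gene called by DESeq2 was on none of them.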

How the data were processed

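Polyadenylated RNA was measured in 9 libraries of log phase fission yeast, 3 each of STF6, STF9 and T4A. The labels' protocols describe hot phenol purification and a stranded kit with paired-end reads. Per the submitters' processing notes, HISAT2 2.1.0, SAMtools, HTSeq 0.10.0 and DESeq2 were used with genome build ASM294v2. Its annotation, strand setting and rule for reads with several matches were not given in the sources used here. Raw counts per gene, with no normalization, are what the authors deposited. Per the file headers, the authors' comparison tables hold log2 fold changes with standard errors, a Wald score, p-values and mean normalized counts, a signal. From these only the log2 fold and its standard error are quoted.

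Of 6987 lines, 1 all-zero duplicate was dropped, and 384 of the remaining 6986 genes had no count. Counts were tested by glmQLFit and glmQLFTest of edgeR 4.0.16 in R 4.3.3, with TMM scaling, filterByExpr (5951 genes kept), all 9 libraries and group as the only term, adjusted over 5951 genes. Ratios within a library were tested by exact permutation of libraries. The scripts were tested on simulated counts. All 3 genes passed the filter. Positions, lengths, neighbours and promoter sequences come from RefSeq's ASM294v3 by gene ID (6838 IDs matched), a build other than the authors', so no position is taken from the count tables. The names clp1 and hrp1 stand in the tables for unrelated products and were left out of the termination list. The 3 genes, the gene lists and the tests were chosen with earlier results of these data known. Genes to name were drawn from the 3 members, the measured genes of the lists, the 5 most alike and the nearest 2 counted neighbours on each side, and list genes not named are given by counts. The alternatives tried were DESeq2 1.42.0, scaling by median ratios or by library size, no filter on low counts or 1 CPM in every library, only the libraries compared, a replicate term, 1 count added to each gene of a ratio, and leaving out each library. Figures were drawn with matplotlib 3.10.9. Precision is limited by 3 libraries per group.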

Additional observations from a re-analysis of the deposited data

How the results depend on the processing

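The rises of the 3 genes in both suppressors passed under all 16 alternatives run. In STF6 the log2 fold ranged from 5.70 to 5.92 for pho1, 4.16 to 4.31 for pho84 and 4.58 to 5.01 for tgp1, and in STF9 from 5.47 to 5.70 for pho1, 3.997 to 4.142 for pho84 and 4.17 to 4.61 for tgp1, with adjusted p of at most 7.44e-07. In STF9 against STF6 it ranged from −0.25 to −0.20 for pho1, −0.20 to −0.13 for pho84 and −0.45 to −0.35 for tgp1. With only the libraries compared, pho1 (−0.22, adjusted p = 0.00862) and tgp1 (−0.40, adjusted p = 7.35e-04) passed there, 17 genes were called and 2 members of phosphate acquisition. DESeq2 called 1 gene, and leaving out a library gave 0 to 6 genes and 0 to 1 member.

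Leaving out a library gave differences of 1.48 to 1.59 for pho1 over pho84 and of 1.01 to 1.20 for pho1 over tgp1. Without a T4A library the exact permutation p was 0.0714 for both, the smallest possible with the libraries left. The number of genes called ranged from 1657 (without STF9 replicate 3) to 3173 in STF9 against T4A. In STF6 against T4A it ranged from 1658 to 2853 over all genes and from 2 to 7 for RNA elimination genes. Signs turned by over 1 SE only in genes that had not passed. When a library was left out, pho4 ranged from −0.130 to 0.0751 in STF6 and from −0.156 to 0.0491 in STF9, rpb1 from −0.430 to 0.0428 in STF6 and from −0.306 to 0.164 in STF9, mtl1 from −0.0822 to 0.200 in STF9, pcf11 from −0.115 to 0.0120 in STF9, seb1 from −0.0433 to 0.398 in STF6 and from −0.0107 to 0.429 in STF9, and his3 from −0.654 to 0.149 in STF9. The turn came without T4A replicate 2 for pho4, rpb1, mtl1 and pcf11, and without T4A replicate 3 for seb1 and his3. The cause was not tested.

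Whether replicate numbers pair the samples could not be settled with 3 libraries per group. Of 9 pairs with the same number 3 had a correlation of deviations over 0.1 (range of the 9, −0.306 to 0.38). Of 18 pairs with other numbers 4 did. With the replicate block 2432 genes were called in STF6, against 2286 without it, 2803 in STF9, against 2633, and 0 in STF9 against STF6. Under the block the ratio differences stayed at 1.55 and 1.13 with an exact permutation p of 0.0741, the smallest possible. Per kilobase of coding in place of exon length, pho1 stood at 4439 CPM in STF6, pho84 at 1340 and tgp1 at 154. Depth limits tgp1 most, with 168 to 217 counts per T4A library.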
